A study of Mus musculus with 20 samples.

Results

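The 10 genes described here carry dietary fat through the absorbing cell of the gut and pack it into chylomicrons: Cd36, Slc27a4, Acsl5, Mogat2, Dgat1, Dgat2, Agpat2, Mttp, Apob and Sar1b. They were taken by name for their roles, by a rule that uses no measured value but was written with earlier results of these data known, from the 21154 named genes of a 1-colour expression array. All 10 were on the array, and each is given by its brightest probe. The mice were male C57BL/6J, fed for 13 weeks from the age of 5 weeks. Fat gave 10% of the energy in CD, the control diet, and 60% in HFD, the high fat diet. HFD+PP is HFD with 2% by weight of porphyran (a sulfated polysaccharide of red algae), and HFD+Ex is HFD with 2% by weight of nori extract. The tissues were ileum, colon, liver, brown fat and the white fat of the mesentery, and each of the 20 arrays held 1 tissue of 1 diet, pooled from 7 mice.

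Fat is taken up by enterocytes mainly in the proximal small intestine, as fatty acids and monoacylglycerol released in the gut lumen. CD36 and FATP4 (Slc27a4) take part in fatty acid uptake, ACSL5 joins the acid to coenzyme A, MOGAT2 and the DGAT enzymes rebuild triglyceride from monoacylglycerol, and AGPAT2 serves the parallel route from glycerol phosphate. MTTP loads the triglyceride onto apolipoprotein B, and SAR1B drives the vesicles that carry the new particle out of the endoplasmic reticulum. Liver uses MTTP and apolipoprotein B in the same way to make VLDL, and fat depots use CD36, AGPAT2 and DGAT enzymes to store fat.

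All levels below are log2 signals relative to the 75th percentile of their own array, so a level of 0 equals that percentile, and they are compared between arrays within 1 gene only. The 9 genes other than Apob were well above background on all 20 arrays. Apob was well above background on 18, and was not on the brown fat arrays of CD and HFD+PP. Between 50.7% and 67.9% of the spots on an array were well above background. Each labelled tissue had its own markers, but mesenteric fat, brown fat and gut also held those of other tissues. On the brown fat arrays all 6 skeletal muscle markers were well above background and summed to between 55.6 and 109.8. All 8 adipocyte markers were well above background on each ileum and colon array. The 6 ileal markers (Fabp6 and Fgf15 among them) summed to between 912 and 1056 times the 75th percentile on the ileum arrays and to at most 8.9 times on any other. The 6 proximal small intestine markers, among them Lct and Slc5a1, summed to between 13.3 and 25.5 in ileum and to between 25.3 and 30.02 in liver. Their sum is therefore not specific to gut among these tissues. Of the 6, 2 or 3 were well above background on a liver array, and 6 on each ileum array. Summed hepatocyte markers were at least 6183 in liver and at most 109.6 elsewhere, brown adipocyte markers at least 3090 in brown fat and at most 42.3 elsewhere, and colon markers between 353 and 393 in colon, with up to 167.9 in liver. In mesenteric fat the 8 adipocyte markers summed to 1192, 1230, 1525 and 1512 on CD, HFD, HFD+PP and HFD+Ex, and the 10 exocrine pancreas markers to 1214, 33.2, 1811 and 707. Every comparison with mesenteric fat below is of this mixture. Ileum lies distal to the main site of fat absorption. The arrays were on 4 slides. All of liver with the CD and HFD arrays of mesenteric fat shared a slide, as did the other mesenteric fat arrays with 3 brown fat arrays, and the HFD+Ex brown fat array shared one with ileum. Colon had a slide of its own, so colon and slide cannot be told apart.

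The sequence upstream of the start was read for 7 of the 10 genes (RefSeq, GRCm38.p6; not Mogat2, Dgat1 or Dgat2), and is shown for 3 genes that the results turn on. Mttp and Apob were both high in ileum and liver, and Cd36 was highest in the fat depots. Each run is the 250 bases before the start, 5′ to 3′ on the gene's strand, with matches to any of 6 searched motifs in capitals.
Mttp, chr3:138143419-138143668, minus strand: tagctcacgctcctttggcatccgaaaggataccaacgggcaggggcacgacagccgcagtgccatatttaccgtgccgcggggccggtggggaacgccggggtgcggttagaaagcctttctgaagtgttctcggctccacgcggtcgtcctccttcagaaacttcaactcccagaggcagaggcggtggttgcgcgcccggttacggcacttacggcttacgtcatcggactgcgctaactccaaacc
Apob, chr12:7977427-7977676, plus strand: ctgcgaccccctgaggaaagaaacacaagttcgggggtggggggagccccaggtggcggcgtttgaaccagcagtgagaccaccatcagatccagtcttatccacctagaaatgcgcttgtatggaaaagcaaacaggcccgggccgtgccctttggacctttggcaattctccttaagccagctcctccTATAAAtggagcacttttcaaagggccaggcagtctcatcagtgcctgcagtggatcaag
Cd36, chr5:17835897-17836146, minus strand: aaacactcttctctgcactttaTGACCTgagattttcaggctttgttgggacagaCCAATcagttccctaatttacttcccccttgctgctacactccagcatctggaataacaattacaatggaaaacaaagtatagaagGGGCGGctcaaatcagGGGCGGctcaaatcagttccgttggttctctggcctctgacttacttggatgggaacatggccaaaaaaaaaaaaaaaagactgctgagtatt
The motifs, searched on both strands, were GTTAAT (an HNF1 half-site, found in 6.43% of the 32851 upstream sequences in the table), CAAAGTCCA (an HNF4 site, 0.384%), AGGTCA (a nuclear receptor half-site, 14%), TATAAA (the TATA box, 12.4%), CCAAT (33.8%) and GGGCGG (a GC box, 32.7%). Only exact matches were counted, so a site that differs by a base is missed. For each gene the sequence before 1 annotated start was read, and other starts were not. The Mttp sequence held no exact match to any of the 6. The Apob sequence held 1, a TATA box at −60 to −55 from the start. The Cd36 sequence held 4: a nuclear receptor half-site on the reverse strand at −228 to −223, a CCAAT box and a pair of GC boxes. No match overlapped another in these 3 sequences. Of the 4 genes not shown, Slc27a4 and Agpat2 had 2 GC box matches each, those of Agpat2 overlapping by 1 base, and Acsl5 and Sar1b had 1 CCAAT match each.

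**Figure D1:**
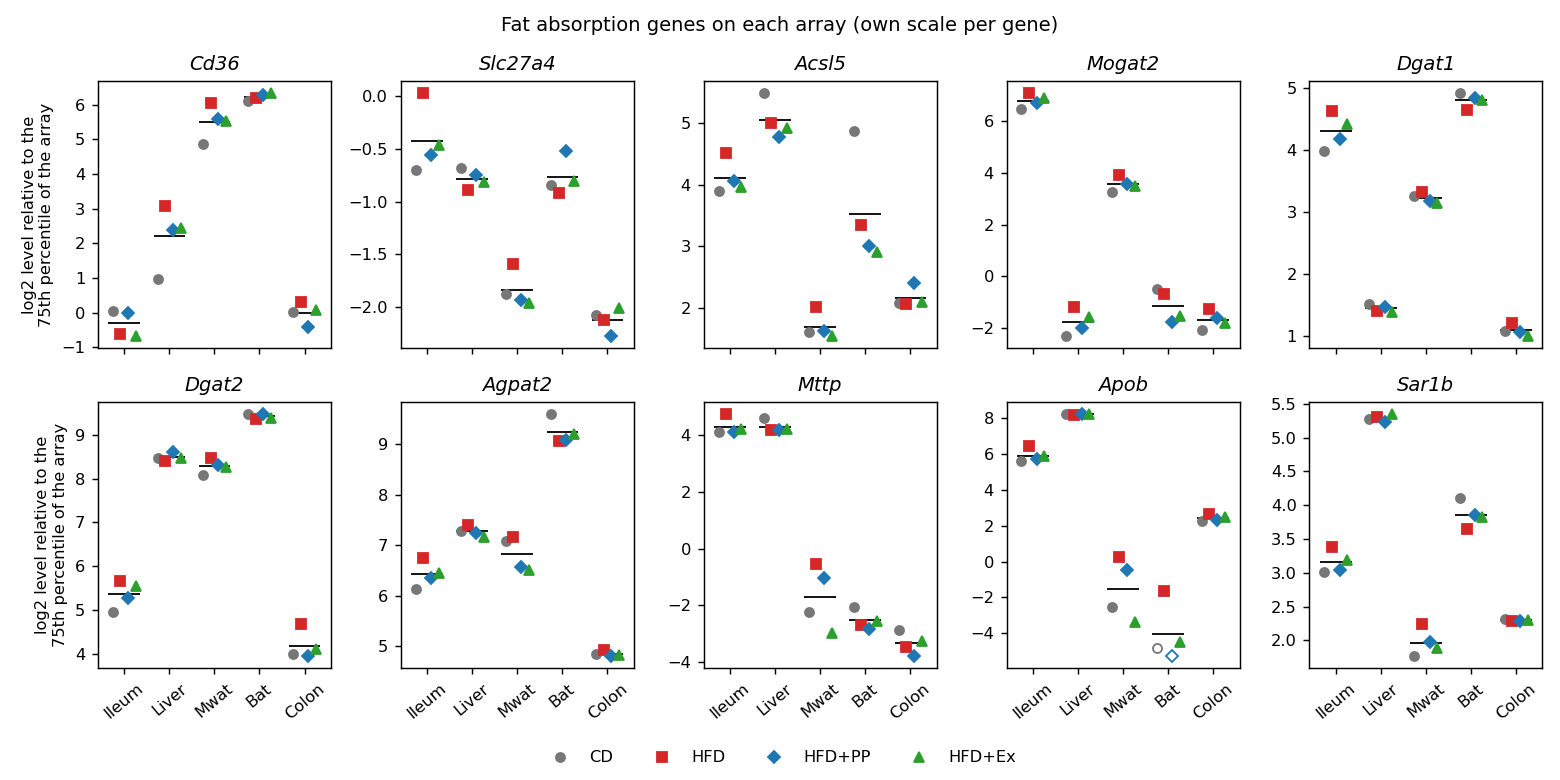
Level of each gene (log2, relative to the 75th percentile of the array) on each of the 20 arrays, by tissue on the x axis and diet by marker, with the mean of the 4 arrays of a tissue as a bar and hollow markers for arrays not well above background; every gene has its own scale. Mogat2 stands highest in ileum, Cd36 in both fat depots, and Mttp in ileum and liver alike.

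The tissues were compared first, because the 4 diets gave 4 pools of each. The fit (limma, with tissue and diet, 20 arrays) was run on 16735 genes with p-values adjusted by Benjamini-Hochberg over all of them, and a gene was called at an adjusted p under 0.05 and a difference of at least 2-fold. Against colon, 8 of the 10 genes were called higher in ileum and 0 lower. That compares with 15.1% of all genes tested called either way. Ileum also stood above mesenteric fat in 7 genes and below it in 2 (36.9% of all genes called), above liver in 2 and below it in 4 (49.8%), and above brown fat in 3 and below it in 3 (51.4%). The counts against liver and brown fat are near these shares. Colon has the same layers as ileum but absorbs little fat. Its 15 intestinal epithelial markers, Vil1 and Epcam among them, were all well above background, as in ileum. Their median level was lower in colon, however, at 6.43 to 6.62 against 7.28 to 7.64 in ileum. The part of this gap in the calls was not tested.

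Mogat2, which makes diacylglycerol from absorbed monoacylglycerol, was highest in ileum. Its levels there were 6.50, 7.10, 6.73 and 6.92 on CD, HFD, HFD+PP and HFD+Ex. Mesenteric fat came next at 3.26, 3.93, 3.57 and 3.50. The highest array of brown fat, colon and liver stood at −0.50, and no array of these 3 tissues overlapped either of the first 2. Ileum exceeded mesenteric fat by 3.25 ± 0.23 log2 (SE, n = 4 pools, limma adjusted p = 1.40e-08), brown fat by 7.95 ± 0.23 (adjusted p = 4.81e-13), colon by 8.52 ± 0.23 (adjusted p = 3.70e-12) and liver by 8.57 ± 0.23 (adjusted p = 1.85e-13). Brown fat, colon and liver were not called against each other. Liver differed from mesenteric fat by −5.33 ± 0.23 log2 and was called lower.

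Mttp, which loads lipid onto apolipoprotein B, was high in ileum and liver. Its ileum levels were 4.09, 4.74, 4.10 and 4.2 in the same order of diets, and its liver levels 4.60, 4.15, 4.16 and 4.21. These ranges overlap, and the fitted difference was 0.00 ± 0.38 log2 (limma adjusted p = 0.997). This closeness depends on the scaling: the authors' series matrix values moved the median of all genes by 0.60 log2 between these tissues. The SD of Mttp was 1.09 in mesenteric fat, 0.31 in ileum and 0.22 in liver, and the first enters the errors given here. The highest array of the other tissues stood at −0.56. Ileum exceeded mesenteric fat by 5.98 ± 0.38 log2 (adjusted p = 3.90e-09), brown fat by 6.81 ± 0.38 (adjusted p = 3.98e-10) and colon by 7.62 ± 0.38 (adjusted p = 1.31e-09).

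Apob, the structural protein of chylomicrons and VLDL, was highest in liver, at 8.23, 8.18, 8.27 and 8.23. It stood at 5.61, 6.48, 5.73 and 5.89 in ileum and at 2.26, 2.68, 2.32 and 2.49 in colon, with no overlap between these 3 tissues. Ileum differed from liver by −2.30 ± 0.61 log2 (limma adjusted p = 3.11e-03) and from colon by 3.49 ± 0.61 (adjusted p = 3.37e-04). The spread of Apob over the diets was widest in the fat depots (SD 1.71 in mesenteric fat and 1.64 in brown fat), and it enters these errors. It was 0.39 in ileum, 0.03 in liver and 0.19 in colon. With slide as a fixed term and colon left out, the ileum to liver difference was −2.42 with an adjusted p of 0.392, and that of Cd36 was −2.68 with 0.0859, so that 4 genes rather than 6 were called between these tissues. The levels in the fat depots moved with diet and are given below. Sar1b, the GTPase of chylomicron export, was also highest in liver (5.29 ± 0.05, SD, n = 4 pools), then brown fat (3.86 ± 0.19), ileum (3.16 ± 0.17), colon (2.30 ± 0.02) and mesenteric fat (1.96 ± 0.20). Its ileum level exceeded colon by 0.86 ± 0.11 log2 (adjusted p = 2.81e-05), short of 2-fold.

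Both diacylglycerol acyltransferases, which add the last fatty acid of triglyceride, were above background everywhere but in different orders. Dgat1 was highest in brown fat (4.79 ± 0.11, SD, n = 4) and ileum (4.30 ± 0.28), then mesenteric fat (3.22 ± 0.08), liver (1.45 ± 0.06) and colon (1.1 ± 0.08). Ileum exceeded liver by 2.85 ± 0.11 log2 (SE, adjusted p = 9.11e-12) and colon by 3.20 ± 0.11 (adjusted p = 3.95e-11). Dgat2 was highest in brown fat (9.42 ± 0.06), liver (8.48 ± 0.08) and mesenteric fat (8.28 ± 0.17), and lower in ileum (5.36 ± 0.32) and colon (4.19 ± 0.34). Ileum differed from liver by −3.12 ± 0.14 log2 in Dgat2 (adjusted p = 3.37e-11). Brown fat against mesenteric fat was −0.06 with quantile normalization, and short of 2-fold with another percentile (0.78) and with the authors' series matrix values (0.66). Liver and mesenteric fat did not differ past the threshold in Dgat2 (adjusted p = 0.206), and this pair turned to −1.03 (adjusted p = 4.26e-06) with quantile normalization. Agpat2 ran from 9.24 ± 0.25 in brown fat through 7.28 ± 0.10 in liver, 6.84 ± 0.34 in mesenteric fat and 6.42 ± 0.25 in ileum to 4.86 ± 0.06 in colon, and the 3 middle tissues were not called against each other.

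Cd36 was highest in the fat depots and low in the gut. Its brown fat levels were 6.10, 6.19, 6.28 and 6.34, and those of mesenteric fat 4.86, 6.04, 5.58 and 5.54. Ileum held 0.06, −0.62, −0.01 and −0.67, and colon 0.03, 0.31, −0.43 and 0.07, which overlap (difference −0.30 ± 0.33 log2, limma adjusted p = 0.477). Ileum differed from brown fat by −6.53 ± 0.33 log2 (adjusted p = 1.15e-10) and from mesenteric fat by −5.81 ± 0.33 (adjusted p = 1.03e-09). Slc27a4, an acyl-CoA synthetase of the fatty acid transport family, spanned less: its tissue means were −0.43 ± 0.32 in ileum (SD, n = 4), −0.77 ± 0.17 in brown fat, −0.78 ± 0.09 in liver, −1.84 ± 0.17 in mesenteric fat and −2.12 ± 0.11 in colon. The first 3 were not called against each other. Acsl5, the long-chain acyl-CoA synthetase, was highest in liver (5.04 ± 0.31), followed by ileum (4.11 ± 0.28), brown fat (3.53 ± 0.91), colon (2.17 ± 0.16) and mesenteric fat (1.71 ± 0.21). Ileum exceeded colon by 1.94 ± 0.30 log2 (SE, adjusted p = 1.20e-04).

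**Figure D2:**
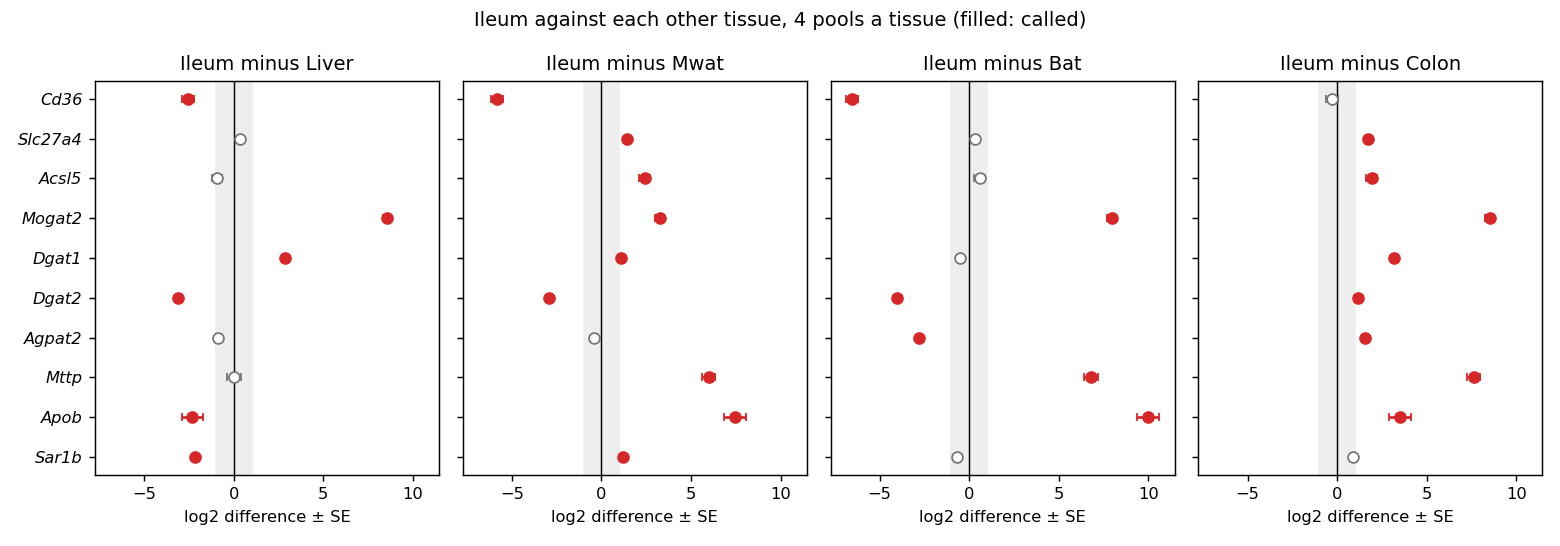
Difference between ileum and each other tissue (log2, point) with its standard error (bar) for each gene, over 4 pools a tissue; filled points are called, and the grey band marks less than 2-fold. Against colon, 8 points lie to the right of the band, and Mogat2 lies to the right of it against each of the other tissues.

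The remaining pairs of tissues were called as follows. Against colon, liver had 8 of the 10 genes higher (48.4% of all genes called either way), brown fat had 7 higher and 1 lower, Apob (48.2%), and mesenteric fat 6 higher and 1 lower, again Apob (35.9%). Liver stood above mesenteric fat in 5 genes and below it in 3 (50.7%), and above brown fat in 4 and below it in 3 (40.8%). Brown fat exceeded mesenteric fat in 6 and was lower in 2, Mogat2 and Apob (41.7%). Apob was well above background on 2 of the 4 brown fat arrays, so its differences from that tissue are of measured signals near the floor. With normexp background correction, Slc27a4 in liver and in brown fat against mesenteric fat (0.90 and 0.91) and Apob in brown fat against mesenteric fat (−0.85) were short of 2-fold. In brown fat against colon, 5 genes rather than 7 were called higher with another percentile and with the authors' series matrix values. Slc27a4 (0.98 and 0.99) and Acsl5 (0.990 and 0.998) were just short there, and Acsl5 was at 0.89 without the CD pools. With slide as a fixed term and colon left out, Apob in brown fat against mesenteric fat (adjusted p = 0.0594) and Acsl5 in liver against brown fat (adjusted p = 0.0767) were no longer called.

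The ileum was then compared between diets. With 1 array of each diet in a tissue there is no test within a tissue, and a gene is said to have risen or fallen when the arrays differed by at least 2-fold. Replicate spots give a technical SD of 0.0775 log2 for a difference, which leaves out the variation between mice and pools. None of the 10 genes changed 2-fold in ileum in HFD against CD, where 3.84% of all genes did, in HFD+PP against HFD (2.87%), in HFD+Ex against HFD (1.81%) or in HFD+Ex against HFD+PP (3.32%). Of the 10, 9 were higher on HFD than on CD, however, with a median of 0.63 log2 against 0.00 over all genes. Cd36 was the exception.

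On HFD, Apob stood 0.87 log2 above CD in ileum (1.83-fold), and its second, dimmer probe 1.06. Slc27a4 was higher by 0.73, Dgat2 by 0.72, Mttp by 0.65, Dgat1 by 0.64, Acsl5 by 0.62, Mogat2 and Agpat2 by 0.60 each and Sar1b by 0.37. Cd36 differed by −0.68 (1.60-fold lower). At a 1.5-fold threshold, chosen after these values were seen, 8 genes rose and 1 fell, beside 5.49% and 7.66% of all genes. Acsl5, Agpat2, Dgat1, Mogat2 and Mttp stood between 1.51- and 1.57-fold, close to that threshold, and the count of risen genes was between 2 and 8 under the other ways of scaling, while 9 genes were above 0 under each of them.

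The makeup of the ileum arrays moved with diet too. From CD to HFD the 15 intestinal epithelial markers had a median difference of 0.22 log2 and 2 of them rose (Alpi and Sis), and the 6 proximal small intestine markers had a median of 0.59, with Lct rising. The 6 ileal markers had a median of 0.42, and 6 of 6 were above 0. The 8 adipocyte markers had a median of −1.49 with 4 falling, among them Adipoq and Plin1, and their summed level went from 48.0 to 14.9. The 6 smooth muscle markers had a median of −0.59, and the 9 hepatocyte markers one of −0.93, with 4 falling. Less the epithelial median, 9 genes were above 0 with a median of 0.40, and Apob alone of them was past 1.5-fold. The medians of the ileal and proximal markers are larger than the epithelial one and were not subtracted. Cd36 is also a gene of fat cells and vessel walls, and the 9 endothelial markers had a median of −0.45. The part of these markers in the differences was not tested.

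With either supplement most of these genes were lower in ileum than on HFD alone. On HFD+PP, 9 of the 10 were below HFD, with a median of −0.42 log2 (all genes 0.00), and Cd36 was 0.61 higher. At 1.5-fold 3 fell, beside 3.98% of all genes: Apob by 0.75, Mttp by 0.64 and Slc27a4 by 0.59 on the log2 scale. Cd36 was the 1 that rose (5.04% of all genes). With normexp, quantile normalization, another percentile and the authors' series matrix values 2 fell, and with normexp 0 rose. Less the epithelial median, 0 fell 1.5-fold and the median of the 10 was −0.25. On HFD+Ex all 10 were below HFD with a median of −0.25 (all genes −0.03), and 1 fell 1.5-fold, Apob by 0.60 (2.38% of all genes fell and 3.49% rose). With each of the 5 other ways of scaling or summarising, and less the epithelial median, 0 fell 1.5-fold. Less that median, 8 were below 0 and the median was −0.09. Cd36 differed by −0.05, and 1 gene was above 0 with 2 of the other scalings. The epithelial markers were at −0.17 with porphyran and −0.16 with the extract, the proximal markers at −0.52 and −0.31, the ileal markers at −0.28 and −0.17, and the smooth muscle markers at 0.65 and 0.47. The adipocyte markers were at 1.56 with porphyran, where 6 of 8 rose, and at 0.17 with the extract. These comparisons share the HFD array with the one above, so a high or low HFD array would enter all 3. The extract array stood above the porphyran array in 8 genes, with a median of 0.13.

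**Figure D3:**
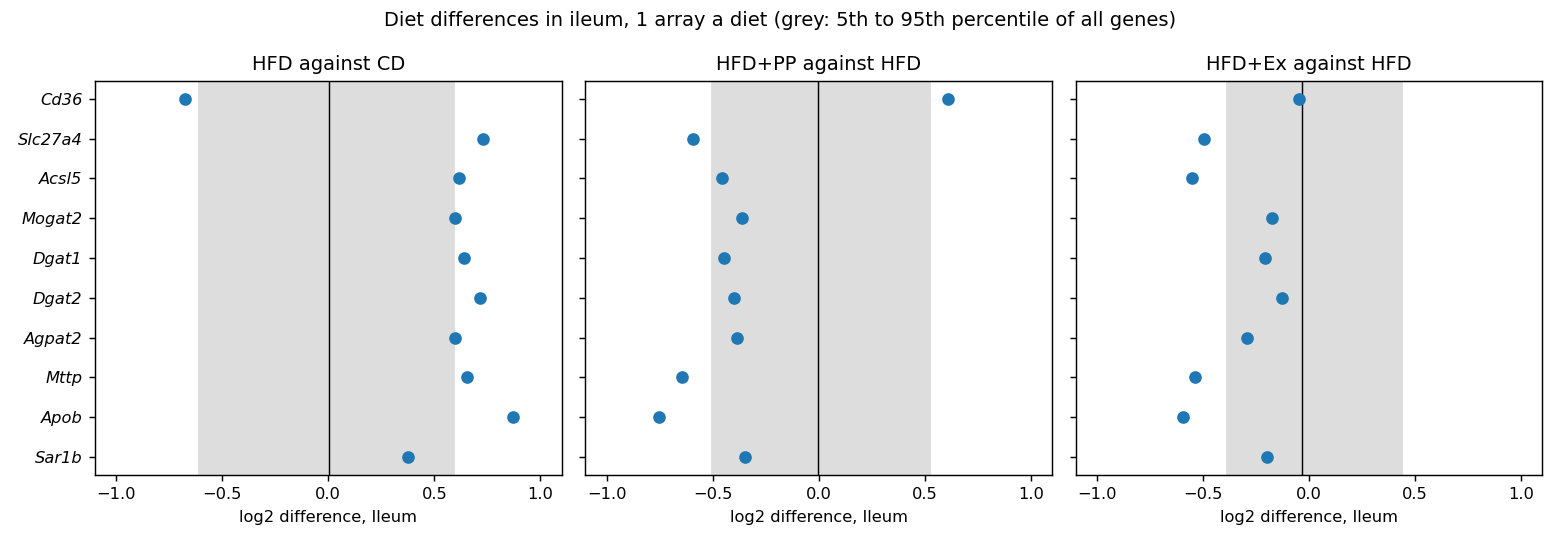
Difference between diets in ileum for each gene (log2, 1 array a diet) in 3 comparisons, with the 5th to 95th percentile of all genes in grey and their median as a line. In HFD against CD the genes other than Cd36 lie between 0.37 and 0.87, and in both supplement comparisons nearly all lie left of the line.

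The other genes of the pathway in ileum differed by list. Of the 15 apolipoprotein and assembly genes, 14 were measured and 14 were above 0 on HFD against CD (median 0.43). Apoa4, an apolipoprotein of intestinal chylomicrons, rose from 0.57 to 3.26 (6.41-fold), and Plin2, which coats lipid droplets, rose from 2.79 to 3.85 (2.08-fold). On HFD+PP, 14 of the 14 were below HFD, and Apoa4 fell to 1.83 (2.69-fold). On HFD+Ex, 13 of 14 were below HFD and none fell 2-fold. Fabp1, a cytosolic carrier of fatty acids, stood at 1.77, 4.83, 1.21 and 1.76 on CD, HFD, HFD+PP and HFD+Ex, and the HFD array alone was high. Fabp1 was the 1 of 8 uptake and binding genes that rose and, on each supplement, the 1 that fell. Creb3l3, a transcription factor that acts on apolipoprotein genes, stood at 4.08, 5.87, 4.42 and 5.32, and rose 3.45-fold on HFD. It was the 1 of 11 regulators that rose, and on HFD+PP it fell with Ppara (2.11-fold), the fatty acid receptor. The 12 vesicle export genes had a median of 0.01 on HFD against CD with none past 2-fold. The 4 acyl-CoA synthetases had a median of −0.25, with 3 below 0 and none past 2-fold. The 12 genes listed with the glycerol phosphate route, Mogat1 of the monoacylglycerol route among them, had a median of −0.04. Of them 1 fell, Gpat2, by 1.03 on the log2 scale.

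Colon showed no change of 2-fold in these genes. None of the 10 passed it in HFD against CD (2.13% of all genes did), in HFD+PP against HFD (2.83%), in HFD+Ex against HFD (1.52%) or in HFD+Ex against HFD+PP (3.14%). The median in HFD against CD was 0.10 log2 (all genes 0.03), and Mogat2 was 0.82 and Dgat2 0.69 above CD. The 9 hepatocyte markers had a median of −3.34 between these 2 arrays, with 6 falling, Alb and Apoh among them, and in the same comparison Apob was 0.42 higher.

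In liver, 2 of the 10 rose in HFD against CD, where 3.45% of all genes rose. Cd36 stood at 0.96, 3.08, 2.39 and 2.45 on CD, HFD, HFD+PP and HFD+Ex. The CD array was the low one, and HFD exceeded it 4.35-fold. Mogat2 stood at −2.30, −1.17, −1.99 and −1.59, with HFD 2.18-fold above CD. With normexp background correction Cd36 alone passed. Beside them, Mogat1 rose 7.41-fold from −1.46 to 1.43, and Gpat3 rose 3.67-fold. Mogat1 is an acyltransferase of monoacylglycerol like Mogat2, though it was listed with the glycerol phosphate route. Pparg rose 2.90-fold. Of 6 measured adipocyte markers 5 rose (Cidec and Cfd among them, Adipoq to −3.77), with a median of 2.06 and a summed level that went from 4.5 to 58.1. Of 9 macrophage markers 4 rose, Trem2 and Gpnmb among them, and 1 fell. Of 6 smooth muscle markers 4 rose, with a median of 1.29. Their part in the Cd36 difference was not tested.

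None of the 10 changed 2-fold in liver in HFD+PP against HFD (2.12% of all genes did), in HFD+Ex against HFD (2.86%) or in HFD+Ex against HFD+PP (1.75%). Cd36 differed from HFD by −0.69 log2 with porphyran and by −0.63 with the extract, and Mogat2 by −0.82 and −0.42. The adipocyte markers had medians of −0.50 and −0.87 in these comparisons, with 3 and 2 falling, and the smooth muscle markers −0.81 and −2.01. Macrophage markers fell in 3 and 4 of 9. Their part was not tested. Mogat1 fell in both, 2.56-fold and 2.60-fold. The secretory genes moved little: Apob lay within 0.08 log2 over the 4 liver arrays, Sar1b within 0.12 and Mttp within 0.45, with CD the highest for Mttp.

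In mesenteric fat, 3 of the 10 rose in HFD against CD, where 8.88% of all genes rose. All 10 were above 0, with a median of 0.44 log2 against 0.11 over all genes, though Dgat1 (0.07) and Agpat2 (0.08) turned to just below 0 with some scalings. Apob stood at −2.54, 0.29, −0.45 and −3.35 on CD, HFD, HFD+PP and HFD+Ex, and Mttp at −2.22, −0.56, −1.05 and −2.96. The HFD and HFD+PP arrays were high for both genes, and the CD and HFD+Ex arrays low. Apob rose 7.08-fold on HFD and Mttp 3.16-fold. Cd36 rose 2.28-fold, from 4.86 to 6.04. Its difference of 1.19 log2 lies inside the 5th to 95th percentile of all genes (−1.33 to 1.23). Between these arrays the adipocyte markers had a median of 0.49, with 6 of 8 above 0, and the endothelial markers 0.45, with 6 of 9 above 0. The macrophage markers had a median of 2.36, with 9 of 9 above 0 and 7 rising. Their part in the Cd36 difference was not tested.

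Intestinal epithelial markers followed the order of arrays of Apob and Mttp in this fat depot. Their median level was −1.93, 0.42, −0.01 and −3.35, and 12, 15, 15 and 13 of the 15 were well above background. In HFD against CD 15 of 15 rose, with a median of 2.43. The hepatocyte markers did not follow that order: their median level was −2.58, −2.78, −2.47 and −2.72, 2 of 8 fell in HFD against CD, and 6 of 9 rose in HFD+PP against HFD. Macrophage markers rose in 7 of 9, while 10 of 10 lymphocyte markers, such as Cd3e, and 10 of 10 markers of the exocrine pancreas, such as Prss2 and Pnlip, fell. Hnf4a, a regulator made in gut epithelium and liver, rose 4.99-fold, Fabp2, the intestinal fatty acid carrier, 12.3-fold, and Apoa4 16.5-fold. Mogat2 ranged over 0.67 log2 on these arrays, from 3.26 to 3.93. It stood far above Apob and Mttp, and the same added signal moves a higher level less. Its range can therefore not be set against theirs. The part of these markers in the Apob and Mttp differences was not tested.

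On HFD+Ex, 2 of the 10 fell against HFD in mesenteric fat, where 3.78% of all genes fell: Apob 12.4-fold and Mttp 5.31-fold. The epithelial markers fell in 15 of 15 with a median of −3.24. Exocrine pancreas markers rose in 10 of 10 (median 4.87) and lymphocyte markers in 8 of 10, and macrophage markers fell in 6 of 9. These 2 arrays were on different slides, so slide and diet cannot be told apart here. HFD+Ex and HFD+PP shared a slide, and between them the same genes fell, Apob 7.45-fold and Mttp 3.77-fold, where 2.48% of all genes fell. There too 15 of 15 epithelial markers fell (median −3.06), with 9 of 10 pancreas markers (median −1.75) and 4 of 9 hepatocyte markers (median −0.83), while no adipocyte, lymphocyte or macrophage marker passed 2-fold. The part of these markers was not tested. None of the 10 changed 2-fold in HFD+PP against HFD, where 8.4% of all genes did, and the epithelial median was −0.23. Exocrine pancreas markers rose in 10 of 10 (median 6.61) and lymphocyte markers in 8 of 10 (median 2.17). Macrophage markers fell in 6 of 9 (median −2.09). The part of these markers was not tested, and these arrays too were on different slides. Apob differed by −0.74 and Mttp by −0.49 log2 there. The dimmer Apob probe differed by −1.36, past 2-fold. The genes that were not Apob or Mttp lay within 0.1 log2 between the supplements, the largest gap being −0.09 for Sar1b.

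In brown fat, 1 of the 10 rose and 1 fell in HFD against CD, where 5.45% of all genes rose and 3.03% fell. Acsl5 stood at 4.87, 3.34, 3.0 and 2.90 on CD, HFD, HFD+PP and HFD+Ex, with the CD array high, and fell 2.89-fold on HFD. Apob stood at −4.81, −1.63, −5.28 and −4.47, and the CD and HFD+PP values were not well above background. It rose at least 5.98-fold on HFD. Against HFD it fell at least 9.13-fold on HFD+PP and 7.16-fold on HFD+Ex. These values rest on 1 probe. The second Apob probe was well above background on 0 of the 4 brown fat arrays, at −4.98 on HFD, though it was on all 4 mesenteric fat arrays, down to −4.29. In HFD against CD the count of 2 genes became 1 with normexp, with the mean over probes and with the filter that needs both arrays above background, and so did that of HFD+PP against HFD with the first and the last. The HFD+Ex array was on another slide than the HFD array, so there slide and diet cannot be told apart.

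The hepatocyte markers of brown fat were, like Apob, highest on HFD, with median levels of −2.51, −0.84, −2.81 and −1.93. In HFD against CD 6 of 9 rose and 1 fell, with a median of 3.14, Alb from −2.23 to 1.25 and Apoh from below background to −1.07. They fell in 6 of 9 with porphyran (median −3.30) and in 6 of 9 with the extract (median −1.80). Macrophage markers rose in 8 of 9 on HFD. Mttp, the partner of Apob in lipoprotein assembly, stood at −2.06, −2.69, −2.81 and −2.54 and was highest on CD. The part of these markers was not tested.

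**Figure D4:**
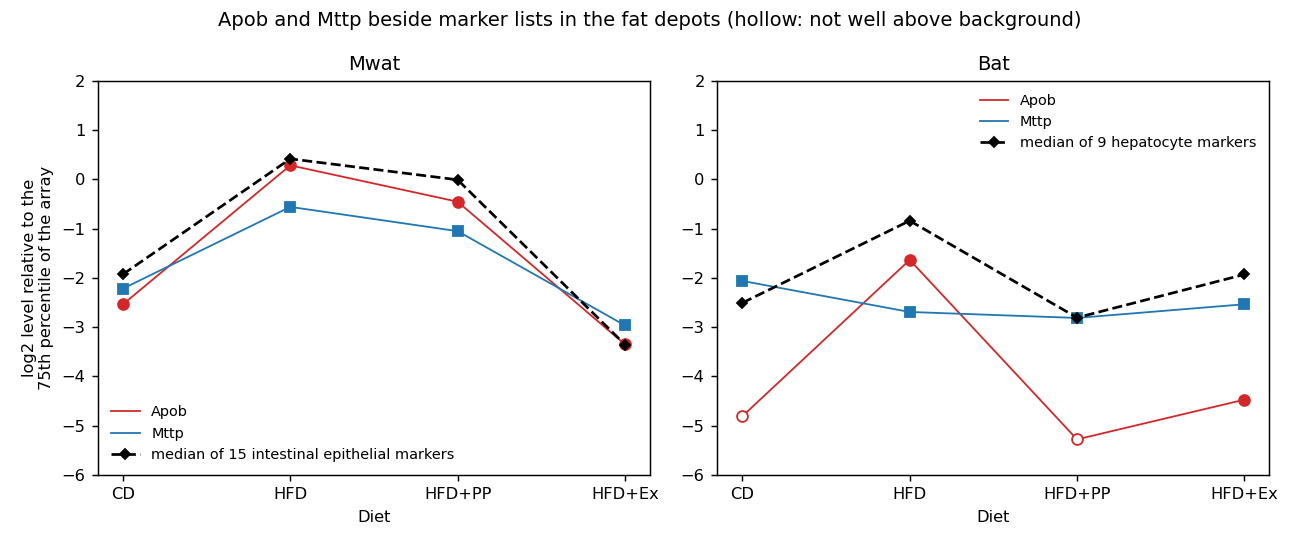
Level (log2, relative to the 75th percentile of the array) of Apob and Mttp by diet in mesenteric fat (Mwat) and brown fat (Bat), with the median of the 15 intestinal epithelial or the 9 hepatocyte markers as a dashed line; lines join 1 array a diet, and only the course of each line is to be compared. In mesenteric fat the 3 lines are high on HFD and HFD+PP, and in brown fat Apob and the hepatocyte median are highest on HFD while Mttp is not.

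Mogat2 was the other gene of the 10 to fall in brown fat on a supplement. It stood at −0.50, −0.70, −1.79 and −1.56, with the supplement arrays low, and HFD+PP was 2.12-fold below HFD. Thus 2 of the 10 fell in HFD+PP against HFD (2.18% of all genes fell) and 1 in HFD+Ex against HFD (3.19%), where Mogat2 differed by −0.85 log2. None changed 2-fold in HFD+Ex against HFD+PP (2.66%). Skeletal muscle markers of brown fat rose in 4 of 6 in HFD+PP against HFD (median 1.03), and their part was not tested. The storage genes were steady in brown fat: Dgat2 ranged from 9.36 to 9.48, Cd36 from 6.10 to 6.34 and Dgat1 from 4.64 to 4.91. Agpat2 was highest on CD, at 9.60, against 9.06, 9.09 and 9.21.

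The genes most like each of the 10 over the 20 arrays were sought among 12279 genes well above background on all arrays, by the root mean square difference of the profiles after each gene's mean was taken off. This is a description, since most of any profile is the difference between tissues. Sar1b had the closest match, Abcb6 at 0.19 log2, followed by Akr7a5. Slc27a4 was closest to Slc6a6 (0.25) and Rab24, Agpat2 to Ddhd2 (0.33), Gpx4 and 1700056E22Rik, and Acsl5 to Lap3 (0.37), Aldh9a1 and Scrn2. Dgat2 lay nearest Prxl2a (0.46), Cebpa and Mgll, an enzyme that breaks down monoacylglycerol. Dgat1 lay nearest Slc43a2 (0.62), Hoxb4 and Slc28a2b. Cd36 was nearest Plin4 (0.83), a lipid droplet protein of fat cells, then Cib2 and Aifm2. Mttp was nearest Vnn1 (0.93), then H2-T3 and Tkfc. Mogat2 lay farthest from its closest match, Bst1 at 1.29, then Exoc3l4 and Gsdme. The distance was not scaled to the range of a gene, so genes that span widely over tissues give larger ones. Genes dim in some tissue, many intestinal epithelial markers among them, were left out of the search. Apob was not compared because 2 arrays were not well above background. Among the 10 themselves the most alike pair was Acsl5 and Sar1b (0.59).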

How the data were processed

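Total RNA of 20 pooled samples was hybridised to 1-colour Agilent mouse arrays. Per the file headers, the authors read the arrays with Agilent Feature Extraction 11.5.1.1, and the deposited values are an intensity per spot, background-subtracted on a linear scale and not scaled between arrays.  From these values, log2 of the processed signal minus the 75th percentile of the array was computed over 62976 spots less 3671 control spots and 117 to 206 outlier spots an array. No spot was saturated. Probes were named by accession through a RefSeq gene table (GRCm38.p6): 28026 of 55681 probes had a symbol. A gene is its brightest probe.

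Diets were compared within a tissue, 1 array a group, with no test. Where the dimmer array gave no signal well above background, the brighter one was set against the floor of the dimmer array, the lowest signal well above background or its own if higher (floors from −6.07 to −4.22), and its fold is a bound ("at least"). Tissues were compared with limma 3.58.1 in R 4.3.3, with 12 residual degrees of freedom, on genes well above background on all 4 arrays of at least 1 tissue. The 4 pools of a tissue differ in diet, and the 5 tissues of a diet come from the same group of mice. In simulated data for ileum against liver, 100 of 16735 genes were given a known change of each size. The noise was independent between arrays, with no slide effect. Of changes of 1.5 log2, 84% were recovered, and of changes of 3 log2, 96%. Ileum and liver were on different slides in the real data, so these rates do not cover a difference between slides. The number of arrays limits the precision.

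Alternatives were normexp background correction (offset 50, on median rather than mean signals), quantile normalization, another percentile, the authors' series matrix, the mean over probes, other filters, slide terms and leaving out each diet. The series matrix values are an intensity too, deposited by the authors; each column was the scanner signal times 1 factor (log2 0.916 to 1.65), with medians from 53.5 to 103.6, on a linear scale and not centred, and the target of the factor is not stated. The members and the lists of pathway and marker genes were chosen with earlier results of these data known. Named genes are all 10 members, up to 3 of each pathway list per tissue and comparison with the largest difference of at least 1 log2 or the largest range over tissues, up to 3 markers of a list beside a result, and the 3 nearest profiles, of which some are not reported here. The 1.5-fold threshold was added after the values were seen.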

Additional observations from a re-analysis of the deposited data

How the results depend on the processing

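Over the 10 pairs of tissues, the count of genes called stayed within 1.5 times of the value given in 136 of 136 refits, leaving out the pools of 1 diet at a time included. Of the single differences between tissues, 1310 kept their direction and side of the threshold, 23 were no longer called, 9 became called, 16 that were not called changed sign, and 2 reversed. Both reversals were Dgat2 against mesenteric fat with quantile normalization: −1.03 for liver and −0.06 for brown fat. The median of all genes moved by up to 0.60 log2 between ileum and liver, and by −0.72 between liver and mesenteric fat, with the authors' series matrix values, so levels between these tissues depend on the scaling.

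Between diets, 137 of 147 counts stayed the same or within 1.5 times. The others were 1 gene in liver, HFD against CD, with normexp, 1 in mesenteric fat, HFD+PP against HFD, with the mean over probes, and 1 each in brown fat: HFD against CD with normexp, with the mean over probes and with the filter that needs both arrays above background, and HFD+PP against HFD with normexp and with that filter. The 1.5-fold threshold, added after the data were seen, gave 9, 4 and 1 in ileum for HFD against CD, HFD+PP against HFD and HFD+Ex against HFD. The cause was not tested, except that the last filter leaves Apob out of brown fat. The diet term of the tissue fit pairs the tissues of a diet, and leaving it out changed no call of the 10 genes. With 1 pool a diet, no difference between diets has a measured spread, and signals near the floor give bounds only.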

Other observations

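Outside ileum, genes of the same pathway lists that are not among the 10 also differed between the diets. In colon, Fabp2 stood at 3.68, 2.67, 5.03 and 3.24 on CD, HFD, HFD+PP and HFD+Ex, so the HFD+PP array was the high one. Creb3l3 in colon stood at −0.23, 2.51, 0.17 and 1.0, and HFD exceeded CD 6.69-fold there as it exceeded CD 3.45-fold in ileum. Fabp1 in colon fell 27.7-fold from CD to HFD, Apoa1 14.6-fold and Apoc3 13.7-fold, on the arrays where 6 of 9 hepatocyte markers fell. In brown fat Fabp1 rose 14.1-fold on HFD and fell 24.8-fold with porphyran, beside hepatocyte markers that moved the same way. In liver, Lpin1, a phosphatidate phosphatase, rose 2.21-fold with porphyran against HFD. None of these differences has a replicate.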
